A study of Homo sapiens with 24 samples.

Results

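The genes described here are the transcriptional coactivators of the Hippo pathway, YAP1 and WWTR1 (which encodes TAZ), their DNA-binding partners TEAD1 and TEAD4, the kinase LATS2, and 5 genes commonly read as their targets, CCN1, CCN2, ANKRD1, AMOTL2 and AXL. They were chosen as a named list, with earlier results of these data known. Matched by symbol, they gave 10 of the 62703 gene identifiers counted, and 9 of the 16600 genes with enough reads to be tested. CCN2 was listed at 0 in every library. The cells were T/C-28a2, an immortalised human chondrocyte line, and 24 poly(A) RNA-seq libraries fell into 6 groups of 4. WT Ctr cells were unedited and kept in isotonic medium, and those labelled WT Sor were exposed to chronic hyperosmotic stress (100 mM sorbitol for 7 days). The libraries labelled WNK2 trans Ctr and WNK2 trans Sor came from WT cells transfected for 48 h with a plasmid encoding WT WNK2, followed by isotonic or sorbitol medium. The groups WNK2- Ctr and WNK2- Sor carried a CRISPR/Cas9 deletion of WNK2 exon 2, the exon with the start codon, and had the same 2 media. WNK2 is a kinase of the WNK family, which is known for sensing osmotic stress. The WNK2- cells were a single clone, the comparison cells for transfection were untransfected, and no group received an empty plasmid.

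In the Hippo pathway, a cascade in which MST kinases activate LATS kinases leads to phosphorylation of YAP and TAZ, which keeps them out of the nucleus. When the cascade is inactive, as on stiff substrates or in spread cells, YAP and TAZ enter the nucleus and bind TEAD factors, which supply the contact with DNA. CCN1 and CCN2 encode secreted matrix-associated proteins, ANKRD1 a nuclear and sarcomeric ankyrin repeat protein, and AXL a receptor tyrosine kinase. AMOTL2 and LATS2 are targets that in turn restrain YAP and TAZ. The activity of YAP and TAZ depends largely on where the proteins are and whether they are phosphorylated, and neither was measured here. Chondrocytes in culture are known to lose their rounded shape and cartilage markers, a change in which this pathway takes part.

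The total count per library ran from 14153002 to 25664619, and the WNK2- libraries were the deeper ones (18578564 to 25664619, against 14153002 to 23239491 in the other groups). Before any result, the counts of WNK2 itself have to be given, since they put 2 groups in doubt. Normalized counts of WNK2 (raw counts scaled to the mean library size) were 2520.0 ± 901 in WT Ctr (mean ± SD, n = 4, as in all groups below), 303 ± 19 in the libraries labelled WT Sor, 252 ± 52.8 in the libraries labelled WNK2 trans Ctr, 3033 ± 707 in WNK2 trans Sor, 407 ± 13.9 in WNK2- Ctr and 359 ± 46.1 in WNK2- Sor. The libraries labelled as transfected in isotonic medium thus held less WNK2 RNA than WT Ctr (log2 fold change -3.32, SE 0.21, adjusted p = 3.88e-11), against their label. The libraries labelled WT Sor, which should be unedited, also held far less than WT Ctr (log2 fold change -3.06, SE 0.21, adjusted p = 1.52e-10), and the log2 difference of WNK2- Sor from them, 0.25 (SE 0.20, adjusted p = 0.33), did not pass. The WNK2 trans Sor libraries (2245 to 3793) overlapped those of untransfected WT Ctr (1441 to 3409), and this pair was not tested. Neither transfected group thus held clearly more WNK2 RNA than WT Ctr. Whether labels were exchanged was not tested. Every result that uses the group labelled WT Sor or that labelled WNK2 trans Ctr, both interactions included, rests on these labels. WNK2- Ctr against WT Ctr and sorbitol in WNK2- cells are the comparisons that use neither. In a fit without both groups, the same members passed in these, 6 of 9 and 1 of 9. A deletion of 1 exon removes few of a gene's reads, so these totals do not check the deletion. Of 10 chondrocyte markers, SOX9 was listed at 0 in all libraries, 6 could be tested, and the summed normalized count of the list ran from 69.6 in a WNK2- Sor library to 563 in a library labelled WNK2 trans Ctr. The fibroblast list was far higher, with sums of 159482 to 670548, mostly from FN1 and COL1A1, and THY1 was listed at 0. COL1A2 had a median normalized count of 5.45, beside 49280 for COL1A1. A 0 in these counts can come from the counting, as described below for genes inside other genes. Whether this holds for SOX9, THY1 or COL1A2 was not tested, so the sums do not show that these genes were silent. In these bulk libraries fewer cells of a kind and less RNA per cell cannot be told apart.

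TEAD factors bind a short DNA motif, and the promoters of the list were searched for its core, GGAATG, on both strands. RefSeq (GRCh38.p14) gave windows of 300 bases, from 250 before to 50 after a transcription start, for 7 of the 10 genes, in 10 windows, since AMOTL2, AXL and WWTR1 each have 2 starts. CCN1, TEAD1 and TEAD4 have no window in that table. The core was present in 6 of the 10 windows, belonging to 6 genes, against 14.03% of all 35116 promoter windows of that length. Among the 16629 windows of tested genes the share was 11.61%. The list includes genes picked as targets of the pathway, so these shares are a description and no test. ANKRD1 held 2 copies and CCN2 3, and 1.373% and 0.1281% of all windows held at least that many. Neither WWTR1 window held the core, and YAP1 and LATS2 had 1 copy each. These are matches of letters within the windows and do not show binding. The 250 bases before the start are printed below for ANKRD1, with the widest range of levels, and the classic target CCN2, listed at 0 throughout. They are also printed for AMOTL2 and AXL, the other targets that were measured and have a window, in each case the window with the core. Capitals mark the core (GGAATG, or CATTCC where it lies on the other strand).
ANKRD1, chr10:90921088-90921337, minus strand: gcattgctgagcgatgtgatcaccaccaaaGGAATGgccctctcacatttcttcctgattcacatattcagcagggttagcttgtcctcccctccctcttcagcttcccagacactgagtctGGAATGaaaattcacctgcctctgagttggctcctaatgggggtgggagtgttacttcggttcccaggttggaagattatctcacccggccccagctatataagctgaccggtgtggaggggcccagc
AMOTL2, chr3:134374448-134374697, minus strand: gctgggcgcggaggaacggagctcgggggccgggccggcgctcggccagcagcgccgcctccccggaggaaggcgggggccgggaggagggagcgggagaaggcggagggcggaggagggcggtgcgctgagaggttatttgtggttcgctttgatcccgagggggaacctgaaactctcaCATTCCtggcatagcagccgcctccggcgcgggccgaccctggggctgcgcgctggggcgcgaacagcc
AXL, chr19:41226505-41226754, plus strand: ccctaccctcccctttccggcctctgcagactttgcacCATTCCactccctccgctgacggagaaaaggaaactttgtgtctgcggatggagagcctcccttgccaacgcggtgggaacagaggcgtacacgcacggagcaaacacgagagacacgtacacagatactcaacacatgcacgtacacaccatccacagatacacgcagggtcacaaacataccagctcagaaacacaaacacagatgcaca
CCN2, chr6:131951373-131951622, minus strand: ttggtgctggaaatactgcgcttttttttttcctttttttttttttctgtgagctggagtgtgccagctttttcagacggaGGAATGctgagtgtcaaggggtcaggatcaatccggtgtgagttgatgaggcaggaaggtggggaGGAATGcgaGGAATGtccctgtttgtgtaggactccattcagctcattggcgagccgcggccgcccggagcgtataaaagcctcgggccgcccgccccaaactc
In ANKRD1 the first bases of the copies lie 220 and 128 bases before the start, and in CCN2 169, 104 and 95 bases before it. The single copies in AMOTL2 and AXL lie on the opposite strand to the gene. For both genes the printed window belongs to the more downstream start, and the window at the upstream start held no copy.

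CCN2 (ENSG00000118523, chr6:131948176-131951373, minus strand, GRCh38) cannot be described from these counts. The value was 0 in all 24 libraries, below the limit of 3 counts that corresponds to 0.212 CPM (a count scaled to the library total) in the smallest library. RefSeq places CCN2 wholly inside CCN2-AS1, a long noncoding RNA gene on chr6:131901952-132102325. GENCODE 29 lists no gene across CCN2, so in the shares that follow, which use GENCODE 29, CCN2 counts among genes that overlap none. Of 1538 protein-coding genes that GENCODE 29 places inside another gene, 1508 (98.0%) were at 0 in all libraries, against 7.63% of 11133 that overlap another gene in part and 10.8% of 7185 that overlap none. TUBA1B and MYL9, which encode a tubulin and a myosin light chain, were also at 0, and each lies inside an antisense gene. The cause of the 0 for CCN2 was not tested, and no level or change is given for it. The other 9 genes had raw counts from 144 for ANKRD1 to 15939 for CCN1. Of the 12 smaller genes that GENCODE 29 places across them, 11 were at 0, so reads of those genes, if any, were not counted separately. Reads of the members themselves could also have been left out in these overlaps, and this was not measured.

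Per kilobase of exon, CCN1 was the most abundant member in all 6 groups. In WT Ctr its normalized count per kilobase was 2337 ± 349, followed by 1094 ± 137 for AXL. TEAD4, WWTR1, YAP1, AMOTL2 and TEAD1 came next, between 527 ± 93.7 and 376 ± 97.5, each within the spread of its neighbour. ANKRD1 (177 ± 54.2) and LATS2 (134 ± 13.5) were the lowest, and the mean of LATS2 lay within the spread of ANKRD1. In WNK2- Sor cells ANKRD1 had moved to second place, with 2874 ± 94.7 per kilobase, above AXL with 1899 ± 152. The member levels by library show that the target genes ANKRD1, AXL and CCN1 varied most between groups, while TEAD1 and LATS2 varied least. The highest group mean was 32.5 times the lowest for ANKRD1, 2.66 times for AXL, 2.30 times for CCN1 and 2.28 times for WWTR1. The same ratio was 1.88 for TEAD4, 1.60 for AMOTL2, 1.33 for YAP1, 1.26 for TEAD1 and 1.18 for LATS2.

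**Figure D1:**
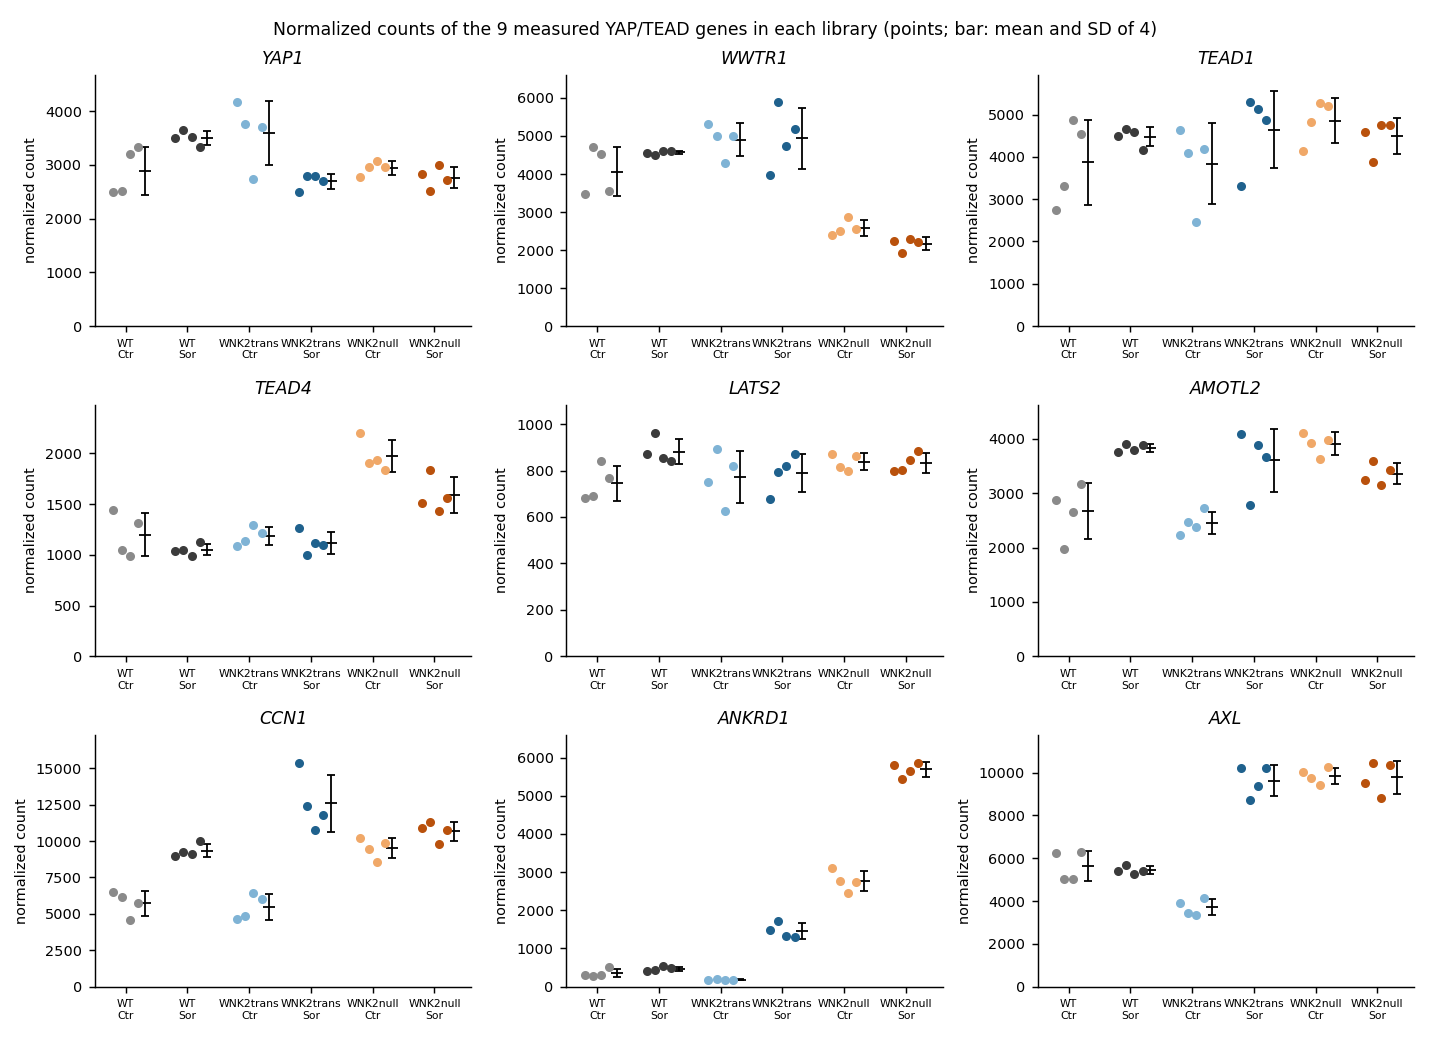
Normalized counts (vertical axis, from 0) of the 9 measured genes in each of 24 libraries, by group on the horizontal axis, with a bar at the mean ± SD of the 4 libraries. ANKRD1 rose from a mean of 175 in the libraries labelled WNK2 trans Ctr to 5687 in WNK2- Sor, while TEAD1 and LATS2 overlapped across the groups.

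The target genes were mostly higher in WNK2- cells than in WT cells under isotonic conditions, and fewer members passed the test in the other comparisons. In WNK2- Ctr against WT Ctr, 6 of the 9 tested members passed (adjusted p below 0.05, Benjamini-Hochberg adjustment over 16600 genes of the p-values of edgeR's quasi-likelihood test), 5 higher (ANKRD1, AXL, CCN1, TEAD4 and AMOTL2) and WWTR1 lower. Of all tested genes 42.1% passed in that comparison, 20.7% higher and 21.5% lower. In WNK2- Sor against the libraries labelled WT Sor, 5 of 9 passed, with ANKRD1, AXL and TEAD4 higher and WWTR1 and YAP1 lower, against 46.3% of all genes (23.7% higher and 22.7% lower), so the share of members was close to that of all genes. By label, sorbitol in WT cells raised 3 of 9 (CCN1, AMOTL2 and ANKRD1), where 24.1% of all genes passed, 11.4% higher and 12.7% lower. In WNK2- cells sorbitol raised 1 of 9, ANKRD1, against 14.9% of all genes (8.25% higher and 6.64% lower). Between the transfected groups, sorbitol against isotonic, 5 of 9 passed, 4 higher (ANKRD1, AXL, CCN1 and AMOTL2) and YAP1 lower, against 48% of all genes (24.3% higher and 23.7% lower). With transfection in isotonic medium ANKRD1 and AXL fell and none of the 9 rose, against 12.5% of all genes (5.57% higher and 6.98% lower). With transfection in sorbitol 4 of 9 passed, ANKRD1, AXL and CCN1 higher and YAP1 lower, against 31.7% (16.1% higher and 15.5% lower). Several of these comparisons share a control group and are not independent. The median log2 fold change of the members was 0.55 in WNK2- Ctr against WT Ctr and 0.24 for sorbitol in WT cells, beside 0.00 and 0.04 over all tested genes, and between -0.09 and 0.27 in the others.

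**Figure D2:**
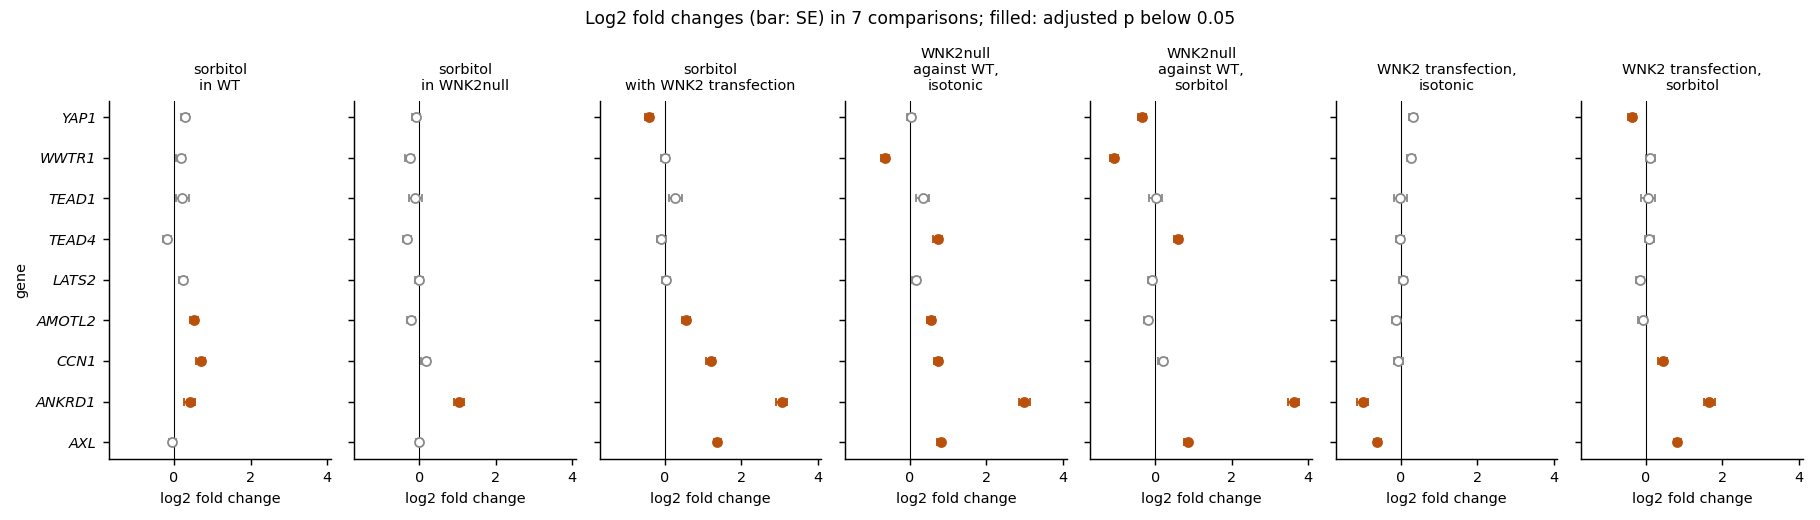
Log2 fold change (horizontal axis; bar, SE) of each measured gene in 7 pairwise comparisons, filled where the adjusted p was below 0.05. ANKRD1 is filled in all 7 panels and reaches 3.62 in WNK2- against WT under sorbitol, and TEAD1 and LATS2 are filled in none.

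The 2 coactivators differed from each other in WNK2- cells, where WWTR1 was lower in both media and YAP1 passed under sorbitol only. WWTR1 (ENSG00000018408, chr3:149517235-149736714, minus strand) encodes TAZ. Its normalized counts were 3469, 4709.7, 4518 and 3546 in the 4 WT Ctr libraries and 4549, 4510.1, 4612 and 4596 in the libraries labelled WT Sor. In WNK2- Ctr they were 2393, 2509, 2876 and 2544, and in WNK2- Sor 2241, 1920.1, 2293 and 2202. All 8 WNK2- libraries lay below all 16 WT-derived libraries. WWTR1 was thus 1.57-fold lower under isotonic conditions (log2 fold change -0.65, SE 0.11, adjusted p = 3.84e-05) and 2.11-fold lower under sorbitol (log2 fold change -1.08, SE 0.11, adjusted p = 1.56e-08). The libraries labelled WNK2 trans Ctr held 5309, 5009, 4285 and 5004 and WNK2 trans Sor 3971, 5881, 4733 and 5179, and none of the sorbitol or transfection comparisons passed for WWTR1 in the joint fit. Sorbitol gave 0.17 (SE 0.11, adjusted p = 0.282) in WT cells, -0.25 (SE 0.11, adjusted p = 0.136) in WNK2- cells and 0.01 (SE 0.11, adjusted p = 0.939) between the transfected groups. Transfection gave 0.27 (SE 0.11, adjusted p = 0.112) in isotonic medium and 0.11 (SE 0.11, adjusted p = 0.458) in sorbitol. The decrease with sorbitol in WNK2- cells passed with only these groups in the fit (adjusted p = 0.0181) and after the GC and length correction (-0.32, adjusted p = 0.000968). After that correction WWTR1 also passed for transfection in isotonic medium (0.33, adjusted p = 0.000944), for sorbitol between the transfected groups (-0.25, adjusted p = 0.0026) and for the transfection interaction (-0.37, adjusted p = 0.00317), which was -0.16 (SE 0.16, adjusted p = 0.459) without it.

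YAP1 (ENSG00000137693, chr11:102110461-102233423, plus strand) encodes YAP. The WT Ctr libraries held 2496, 2505, 3207 and 3337 normalized counts and the libraries labelled WT Sor 3493, 3640.3, 3519 and 3338. The values labelled WT Sor all lay above those of WT Ctr, by the narrowest of margins, and the change did not pass the test (log2 fold change 0.28, SE 0.11, adjusted p = 0.0604). It passed in DESeq2 (adjusted p = 0.0466), after a GC and length correction (adjusted p = 0.02), and without WT Ctr library 3 or 4 (adjusted p = 0.0341 and 0.0209). It also passed when the group labelled WNK2 trans Ctr was left out of the fit (adjusted p = 0.0306). The WNK2- Ctr libraries held 2768, 2962, 3067 and 2958 and WNK2- Sor 2820.3, 2513, 2989 and 2721. Under sorbitol YAP1 was 1.27-fold lower in WNK2- than in WT cells (log2 fold change -0.34, SE 0.11, adjusted p = 0.0107), with no overlap between the groups, and under isotonic conditions the difference was 0.03 (SE 0.11, adjusted p = 0.871).

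In the libraries labelled WNK2 trans Ctr, YAP1 was at 4159, 3757, 2744 and 3699, the highest group mean, with library 3 well below the others. In WNK2 trans Sor it was at 2496, 2794, 2789.9 and 2700.2, the lowest group mean. YAP1 was 1.3-fold lower with transfection than without it under sorbitol (log2 fold change -0.38, SE 0.11, adjusted p = 0.00907). Between the transfected groups it was 1.33-fold lower in sorbitol (log2 fold change -0.41, SE 0.11, adjusted p = 0.00259), and the ranges overlapped through that library. With transfection in isotonic medium the difference of 0.31 (SE 0.11, adjusted p = 0.0533) did not pass. It passed without that library (log2 fold change 0.42, adjusted p = 0.00347), without WT Ctr library 3 or 4 (adjusted p = 0.0356 and 0.0204), in DESeq2 (adjusted p = 0.0348) and after the GC and length correction (adjusted p = 0.001). Against a minimum change of 0.3 on the log2 scale none of the 3 YAP1 calls held, with adjusted p = 0.309 for WNK2- against WT cells under sorbitol, 0.289 for transfection in sorbitol and 0.128 between the transfected groups. Sorbitol in WNK2- cells gave -0.09 (SE 0.11, adjusted p = 0.646) and the genotype interaction -0.37 (SE 0.15, adjusted p = 0.135), and the latter passed after the GC and length correction (-0.40, adjusted p = 0.0129).

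The ratio of YAP1 to WWTR1, both per kilobase of exon, summarises the balance of the coactivators. It was 0.970 ± 0.224 in WT Ctr, 1.02 ± 0.0442 in the libraries labelled WT Sor, 0.973 ± 0.0823 in the libraries labelled WNK2 trans Ctr and 0.740 ± 0.0915 in WNK2 trans Sor. In WNK2- Ctr it was 1.53 ± 0.0682 and in WNK2- Sor 1.71 ± 0.0473. The lowest WNK2- library had a ratio of 1.43 and the highest WT-derived library 1.26, so these did not overlap. These ratios are descriptions and were not tested.

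**Figure D3:**
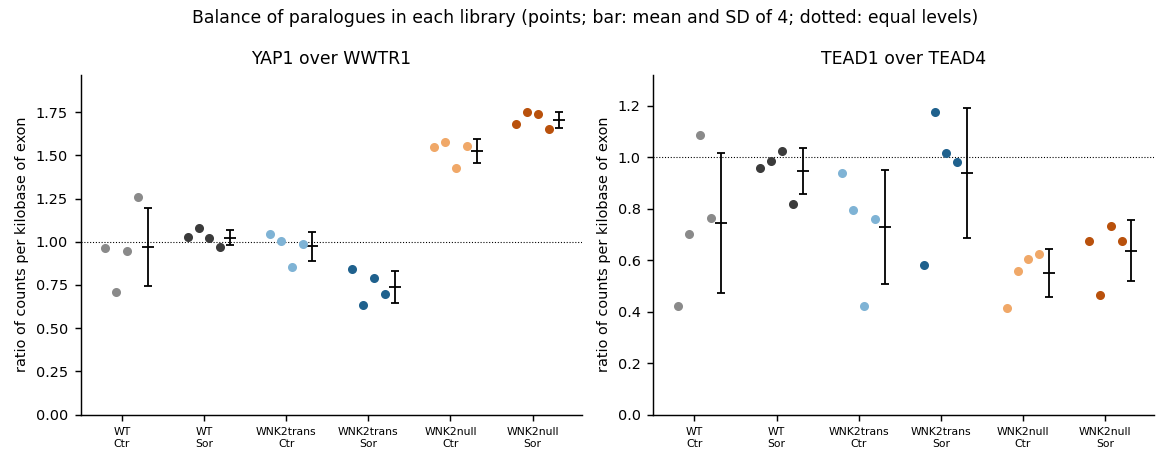
Ratio of normalized counts per kilobase of exon in each library (vertical axis, from 0), YAP1 over WWTR1 on the left and TEAD1 over TEAD4 on the right, by group, with the mean ± SD of 4 libraries and a dotted line at equal levels. The 8 WNK2- libraries lie between 1.43 and 1.75 for YAP1 over WWTR1, above all others.

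Of the TEAD factors, TEAD4 was higher in WNK2- cells and no comparison passed for TEAD1. TEAD4 (ENSG00000197905, chr12:2959330-3040673, plus strand) had 1437, 1044, 993 and 1313 normalized counts in WT Ctr and 2204, 1909, 1939 and 1840.1 in WNK2- Ctr, a 1.65-fold difference (log2 fold change 0.72, SE 0.11, adjusted p = 8.83e-06). Under sorbitol it had 1038, 1047, 993 and 1122 in WT and 1509, 1838, 1433 and 1563 in WNK2- cells, a 1.51-fold difference (log2 fold change 0.59, SE 0.11, adjusted p = 7.62e-05). Neither pair of groups overlapped. The WNK2- Sor libraries all lay below those of WNK2- Ctr, and this change just missed the threshold (log2 fold change -0.31, SE 0.11, adjusted p = 0.0509). It passed without WNK2- Sor library 2 (log2 fold change -0.39, adjusted p = 0.022), in DESeq2 (adjusted p = 0.0411), with only these groups in the fit (adjusted p = 0.00981) and after the GC and length correction (adjusted p = 0.000446). The transfected groups held 1091, 1136, 1297 and 1215 in isotonic medium and 1263, 995, 1113 and 1097 in sorbitol, both within the range of WT Ctr. The changes that did not pass were -0.19 (SE 0.11, adjusted p = 0.224) for sorbitol in WT cells, -0.01 (SE 0.11, adjusted p = 0.956) and 0.09 (SE 0.11, adjusted p = 0.57) for transfection in isotonic medium and in sorbitol, and -0.09 (SE 0.11, adjusted p = 0.543) between the transfected groups. After the GC and length correction TEAD4 was called lower with sorbitol in WT cells (-0.43, adjusted p = 3.54e-05) and higher with transfection in sorbitol (0.44, adjusted p = 1.83e-05). The transfection interaction went from 0.10 (SE 0.16, adjusted p = 0.64) to 0.62 (adjusted p = 1.7e-05) under that correction, and the genotype interaction was -0.13 (SE 0.15, adjusted p = 0.671).

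TEAD1 (ENSG00000187079, chr11:12674591-12944483, plus strand) was spread widely within groups. The WT Ctr libraries held 2753, 3309, 4877 and 4531 normalized counts, the libraries labelled WT Sor 4501, 4656, 4598 and 4154, WNK2- Ctr 4129, 4825, 5283 and 5189.6 and WNK2- Sor 4594, 3872, 4755 and 4763. In the libraries labelled WNK2 trans Ctr it was at 4634, 4093, 2464 and 4178, and in WNK2 trans Sor at 3314, 5284, 5120.2 and 4864. All neighbouring groups in its order overlapped, and no change passed. The largest difference was that of WNK2- Ctr against WT Ctr, 0.33 (SE 0.17, adjusted p = 0.131), and the other 6 pairwise log2 changes lay between -0.11 and 0.27, with adjusted p of 0.195 or more. The former passed without WT Ctr library 3 (log2 fold change 0.47, adjusted p = 0.0417) and after the GC and length correction (0.24, adjusted p = 0.0378). The libraries with low TEAD1 within their group, such as library 1 of WT Ctr, library 3 labelled WNK2 trans Ctr and library 1 of WNK2 trans Sor, were also low in YAP1. After the group means were taken out, TEAD1 and YAP1 had a Pearson correlation of 0.92 over 24 libraries, TEAD1 and CCN1 one of -0.81, and WWTR1 and TEAD4 one of -0.87. Points here share the library, its composition and its depth, and the values are a description. What set these libraries apart was not tested. TEAD1 over TEAD4, per kilobase, was 0.743 ± 0.272 in WT Ctr and 0.550 ± 0.0943 in WNK2- Ctr, with overlapping libraries.

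The targets that feed back on the pathway behaved differently from each other. LATS2 (ENSG00000150457, chr13:20973032-21061547, minus strand) encodes one of the kinases that phosphorylate YAP and TAZ. Its group means ran from 746 ± 75.5 in WT Ctr to 882 ± 55.6 in the libraries labelled WT Sor. No LATS2 change passed, and the nearest was sorbitol in WT cells, with 682, 689, 843 and 769 in WT Ctr against 871, 963, 854 and 839 in the libraries labelled WT Sor (log2 fold change 0.24, SE 0.10, adjusted p = 0.0861). These groups overlapped only at WT Ctr library 3, and without it the change passed (log2 fold change 0.32, adjusted p = 0.0342). The other 6 pairwise log2 changes of LATS2 lay between -0.16 and 0.17, with adjusted p of 0.197 or more.

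AMOTL2 (ENSG00000114019, chr3:134355874-134375479, minus strand) encodes an angiomotin-like junction protein that binds YAP. It had 2876, 1979, 2648 and 3175 normalized counts in WT Ctr and 3756, 3908, 3793 and 3888 in the libraries labelled WT Sor, a rise of 1.44-fold (log2 fold change 0.52, SE 0.12, adjusted p = 0.00181), which was not called against the minimum change (adjusted p = 0.0789). It had 4112, 3924, 3623 and 3978 in WNK2- Ctr, 1.46-fold above WT Ctr (log2 fold change 0.55, SE 0.12, adjusted p = 0.000427). In WNK2- Sor it had 3249, 3586, 3155 and 3429.8, all below WNK2- Ctr and below the libraries labelled WT Sor. Neither of these decreases passed in the joint fit (log2 fold change -0.22, SE 0.11, adjusted p = 0.224, and log2 fold change -0.19, SE 0.11, adjusted p = 0.177). Both passed with only the groups compared in the fit (adjusted p = 0.0206 and 0.00641), and the decrease with sorbitol also after the GC and length correction (adjusted p = 0.0305). AMOTL2 thus rose with sorbitol in WT cells and not in WNK2- cells, and the difference between these responses passed the interaction test (log2 fold change -0.74, SE 0.16, adjusted p = 0.0048). That call was kept under all 25 alternatives. The libraries labelled WNK2 trans Ctr held 2226, 2473, 2377 and 2723 and WNK2 trans Sor 4090.1, 2784, 3888 and 3659, a 1.47-fold rise (log2 fold change 0.56, SE 0.12, adjusted p = 0.000324). Transfection gave -0.12 (SE 0.12, adjusted p = 0.536) in isotonic medium and -0.09 (SE 0.12, adjusted p = 0.587) in sorbitol, and the transfection interaction was 0.03 (SE 0.16, adjusted p = 0.894). Of these the isotonic change (-0.23, adjusted p = 0.0215) and the interaction (0.34, adjusted p = 0.00644) passed after the GC and length correction.

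CCN1 (ENSG00000142871, chr1:85580761-85583962, plus strand) encodes a secreted integrin ligand of the matrix, also known as CYR61. WT Ctr libraries held 6528, 6133, 4547 and 5741 normalized counts and the libraries labelled WT Sor 8944, 9261, 9121 and 9979.8, with no overlap and a rise of 1.63-fold (log2 fold change 0.70, SE 0.12, adjusted p = 0.000119). WNK2- Ctr libraries held 10189, 9453, 8592 and 9869, 1.66-fold above WT Ctr (log2 fold change 0.73, SE 0.12, adjusted p = 1.85e-05). WNK2- Sor libraries held 10884, 11311, 9774 and 10754, overlapping both WNK2- Ctr and the libraries labelled WT Sor, and neither difference passed (0.17 (SE 0.12, adjusted p = 0.396) and 0.20 (SE 0.12, adjusted p = 0.178) on the log2 scale). The difference against the libraries labelled WT Sor passed with only the groups compared in the fit (adjusted p = 0.0117). CCN1 was therefore high in 3 of these 4 groups, and lowest in WT cells in isotonic medium.

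In the libraries labelled WNK2 trans Ctr, CCN1 was at 4634, 4828, 6436 and 6038, the same range as WT Ctr (log2 fold change -0.07, SE 0.12, adjusted p = 0.774). In WNK2 trans Sor it was at 15370.0, 12410.5, 10767 and 11801, the highest group mean, 1.35-fold above the libraries labelled WT Sor (log2 fold change 0.43, SE 0.12, adjusted p = 0.00625) and 2.3-fold above the libraries labelled WNK2 trans Ctr (log2 fold change 1.20, SE 0.12, adjusted p = 8.01e-09). The WNK2 trans Sor libraries did not overlap those labelled WT Sor, but this change was not called against the minimum change (adjusted p = 0.175). The means of the groups labelled WT Sor, WNK2- Ctr, WNK2- Sor and WNK2 trans Sor formed an ascending chain in which each neighbour overlapped the next.

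ANKRD1 was the member with the widest range and passed in all 7 comparisons. The gene (ENSG00000148677, chr10:90912096-90921276, minus strand) encodes an ankyrin repeat protein induced by stretch in muscle. Its promoter, printed above, has 2 copies of the TEAD core. WT Ctr libraries held 312, 271, 308 and 508 normalized counts. WNK2- Ctr libraries held 3102, 2775, 2447 and 2746, 7.92-fold more (log2 fold change 2.99, SE 0.14, adjusted p = 3.03e-14). Every WNK2- Ctr library lay far above the highest WT Ctr library. The libraries labelled WT Sor held 419, 431, 527 and 473 and WNK2- Sor libraries 5807, 5444, 5639 and 5859, a 12.3-fold difference (log2 fold change 3.62, SE 0.15, adjusted p = 3.67e-16).

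Sorbitol raised ANKRD1 2.05-fold in WNK2- cells (log2 fold change 1.04, SE 0.13, adjusted p = 3.01e-06), with no overlap. In WT cells the change was 1.32-fold (log2 fold change 0.41, SE 0.14, adjusted p = 0.0362). WT Ctr library 4, at 508, lay within the range of those labelled WT Sor, and the WT call was lost under 8 of 17 alternatives. It was lost without WT Ctr library 1, 2 or 3 (log2 fold change 0.36, 0.31 and 0.36, adjusted p = 0.0791, 0.142 and 0.0925) and without library 3 or 4 of those labelled WT Sor (0.35 and 0.40, adjusted p = 0.118 and 0.0688). Without WT Ctr library 4 the change was instead larger (0.65, adjusted p = 0.000191). The call was also lost with only these groups in the fit (adjusted p = 0.128), after the GC and length correction (adjusted p = 0.0622) and against a minimum change of 0.3 on the log2 scale (adjusted p = 0.344).

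The transfected groups lay on either side of their WT controls. The libraries labelled WNK2 trans Ctr held 179, 188, 166 and 167, the lowest of all groups and 1.99-fold below WT Ctr (log2 fold change -0.99, SE 0.15, adjusted p = 3.06e-05). WNK2 trans Sor libraries held 1485, 1729, 1318 and 1296, 3.15-fold above the libraries labelled WT Sor (log2 fold change 1.65, SE 0.14, adjusted p = 1.61e-09) and 8.31-fold above the libraries labelled WNK2 trans Ctr (log2 fold change 3.06, SE 0.15, adjusted p = 1.76e-14). In the order of group means, only WT Ctr and the libraries labelled WT Sor overlapped.

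AXL (ENSG00000167601, chr19:41219203-41261766, plus strand), a receptor for GAS6, fell into a low, a middle and a high level. The libraries labelled WNK2 trans Ctr held 3884, 3438, 3345 and 4150.5 normalized counts. WT Ctr held 6224, 5013, 5039.9 and 6280.3 and the libraries labelled WT Sor 5417, 5704, 5268 and 5382, which overlapped. WNK2 trans Sor held 10208, 8723, 9380.2 and 10216, WNK2- Ctr 10030.2, 9739.9, 9405 and 10246 and WNK2- Sor 9508, 10459, 8807 and 10374, and these 3 groups overlapped one another. WNK2- cells had 1.75-fold more AXL than WT cells under isotonic conditions (log2 fold change 0.81, SE 0.09, adjusted p = 9.17e-08) and 1.8-fold more under sorbitol (log2 fold change 0.85, SE 0.09, adjusted p = 2.45e-08). With sorbitol the log2 change was -0.05 (SE 0.09, adjusted p = 0.723) in WT cells and -0.01 (SE 0.09, adjusted p = 0.961) in WNK2- cells, and neither passed. Transfection was followed by a 1.52-fold lower level in isotonic medium (log2 fold change -0.61, SE 0.09, adjusted p = 3.37e-05) and a 1.77-fold higher level in sorbitol (log2 fold change 0.82, SE 0.09, adjusted p = 1.44e-07). Sorbitol against isotonic in the transfected groups was a 2.6-fold rise (log2 fold change 1.38, SE 0.09, adjusted p = 5.66e-12), and like the isotonic comparison it rests on the label of WNK2 trans Ctr.

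Whether the response to sorbitol depended on genotype or transfection was tested as an interaction. For genotype, 3 of 9 members passed, AMOTL2, given above, CCN1 and ANKRD1, against 8.65% of all genes (3.99% with a larger and 4.66% with a smaller change in WNK2- cells). The rise of CCN1 was smaller in WNK2- than in WT cells (log2 fold change -0.54, SE 0.17, adjusted p = 0.0427), and that of ANKRD1 was larger (log2 fold change 0.63, SE 0.19, adjusted p = 0.0396). Both adjusted p-values lay close to the threshold. The CCN1 call was lost under 12 of 25 alternatives, among them the removal of WT Ctr library 3 (log2 fold change -0.46, adjusted p = 0.0755), of any single library labelled WT Sor (-0.57 to -0.52, adjusted p = 0.0549 to 0.0741), of WNK2- Ctr library 1, 2 or 4 (-0.56 to -0.52, adjusted p = 0.0593 to 0.0713) and of WNK2- Sor library 1, 3 or 4 (-0.55 to -0.50, adjusted p = 0.0658 to 0.1004). The ANKRD1 call was lost under 15 of 25, among them the removal of WT Ctr library 4 (0.38, adjusted p = 0.0921), of library 1, 2 or 4 of those labelled WT Sor (0.59 to 0.63, adjusted p = 0.0714 to 0.0874), of WNK2- Ctr library 2, 3 or 4 (0.56 to 0.62, adjusted p = 0.0796 to 0.1001) and of WNK2- Sor library 1, 3 or 4 (0.62 to 0.64, adjusted p = 0.0688 to 0.0723). WWTR1 did not pass (-0.42 (SE 0.16, adjusted p = 0.0937)) except without WT Ctr library 2 (-0.51, adjusted p = 0.0482) and after the GC and length correction (-0.44, adjusted p = 0.00285). The genotype interactions of TEAD1 (-0.32 (SE 0.24, adjusted p = 0.452)), LATS2 (-0.25 (SE 0.14, adjusted p = 0.303)) and AXL (0.04 (SE 0.13, adjusted p = 0.885)) did not pass either.

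For transfection, 4 of 9 members passed, against 35.5% of all genes (18.1% with a larger and 17.4% with a smaller change in the transfected groups). The response of ANKRD1 to sorbitol was larger in the transfected groups than in WT cells (log2 fold change 2.65, SE 0.20, adjusted p = 2.28e-10), as were those of AXL (log2 fold change 1.43, SE 0.13, adjusted p = 3.57e-09) and CCN1 (log2 fold change 0.50, SE 0.17, adjusted p = 0.0211), and that of YAP1 was lower (log2 fold change -0.69, SE 0.15, adjusted p = 0.000903). TEAD1 (0.06 (SE 0.24, adjusted p = 0.868)) and LATS2 (-0.21 (SE 0.14, adjusted p = 0.272)) did not pass. The CCN1 call was lost without library 1 or 2 of those labelled WNK2 trans Ctr (log2 fold change 0.41 and 0.44, adjusted p = 0.0586 and 0.0515), without WNK2 trans Sor library 1 (0.36, adjusted p = 0.0591), with only these 4 groups in the fit (adjusted p = 0.0532) and against the minimum change (adjusted p = 0.123). WNK2 RNA itself had the opposite order in the isotonic and sorbitol comparisons of transfected with untransfected cells (-3.32 (SE 0.21, adjusted p = 3.88e-11) and 3.33 (SE 0.21, adjusted p = 1.28e-11) on the log2 scale). ANKRD1 and AXL had the same pair of signs, so within these 4 groups they were higher where WNK2 was higher for the same medium. In WNK2- Ctr against WT Ctr WNK2 RNA was lower (-2.63 (SE 0.20, adjusted p = 1.54e-10)) and ANKRD1 and AXL were higher. Whether ANKRD1 or AXL depended on the level of WNK2 was not tested, and the first pattern rests on the labels in doubt.

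A further 3 lists put the members among the other genes of the pathway. These lists too were chosen with earlier results of these data known. Their shares beside those of all genes are therefore descriptions and no test of the pathway. The first held 21 genes of the Hippo cascade and its scaffolds, all tested. In WNK2- Ctr against WT Ctr, 8 were higher and 3 lower (52.4%, beside 42.1% of all genes), with a median log2 fold change of 0.24. By size of change AJUBA, an adaptor that restrains LATS kinases, led with 1.88 (SE 0.52, adjusted p = 0.00515), from low counts. Its mean normalized counts were 23.0 in WT Ctr and 84.7 in WNK2- Ctr. Next came FRMD6, a FERM-domain protein, with 1.07 (SE 0.12, adjusted p = 1.12e-07) and NF2 (merlin), which recruits LATS kinases to the membrane, with 1.04 (SE 0.10, adjusted p = 9.3e-09). Under sorbitol 7 were higher and 5 lower in WNK2- cells (57.1%, beside 46.3%). The largest changes were those of the scaffold WWC1 (KIBRA), 1.19 (SE 0.10, adjusted p = 5.33e-10), of FRMD6, 1.13 (SE 0.12, adjusted p = 2.66e-08), and of SAV1, which binds the MST kinases, 1.12 (SE 0.09, adjusted p = 7.49e-11). Sorbitol in WT cells changed 5 (23.8%, beside 24.1%), with WWC1 (-0.54 (SE 0.10, adjusted p = 0.000415)), SAV1 (-0.52 (SE 0.09, adjusted p = 0.000108)) and MOB1A, a coactivator of LATS kinases (-0.40 (SE 0.10, adjusted p = 0.00537)), lower. In WNK2- cells sorbitol raised 2 of the 21, TAOK3 and WWC3, by 0.31 (SE 0.09, adjusted p = 0.0174) and 0.27 (SE 0.07, adjusted p = 0.0121) (9.52%, beside 14.9%). Between the transfected groups sorbitol raised 7 and lowered 4 (52.4%, beside 48%). With transfection in isotonic medium 1 rose and 3 fell (19.0%, beside 12.5%), and in sorbitol 8 rose and none fell (38.1%, beside 31.7%), led by WWC1 (0.83 (SE 0.10, adjusted p = 8.02e-07)), SAV1 (0.66 (SE 0.09, adjusted p = 1.97e-06)) and the MST kinase STK3 (0.63 (SE 0.15, adjusted p = 0.00232)).

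The second list held the remaining TEAD factors and the VGLL proteins, which compete with or assist YAP and TAZ on TEADs. VGLL1 had too few reads to be tested. In WNK2- Ctr all 5 tested genes passed against WT Ctr (beside 42.1% of all genes). VGLL3 was higher, with mean normalized counts of 471 against 150.4 (log2 fold change 1.65, SE 0.18, adjusted p = 7.04e-08), and VGLL2 (-1.40 (SE 0.30, adjusted p = 0.000529), from low counts) and TEAD2 (-0.57 (SE 0.19, adjusted p = 0.0176)) were lower, as were VGLL4 and TEAD3. Under sorbitol 4 of the 5 passed in WNK2- against WT cells (80%, beside 46.3% of all genes). VGLL3 was again higher in WNK2- cells (2.01 (SE 0.18, adjusted p = 1.23e-09)), and TEAD2 (-1.68 (SE 0.20, adjusted p = 1.13e-07)) and VGLL4 (-0.43 (SE 0.09, adjusted p = 0.000193)) were lower, as was TEAD3. Of the TEAD genes TEAD4 alone passed as higher in WNK2- cells, while TEAD2 and TEAD3 fell and TEAD1 did not pass. With transfection under sorbitol 2 rose and 2 fell (80%, beside 31.7%). VGLL2 (1.83 (SE 0.33, adjusted p = 0.000126)) and VGLL3 (1.18 (SE 0.18, adjusted p = 1.72e-05)) rose and TEAD2 fell (-1.55 (SE 0.20, adjusted p = 1.42e-06)), as did TEAD3. Sorbitol in WT cells changed VGLL2 alone of the 5 (-2.25 (SE 0.33, adjusted p = 2.12e-05)), or 20%, beside 24.1% of all genes. In WNK2- cells sorbitol lowered 2 (40%, beside 14.9%), and between the transfected groups it raised 2 and lowered 3 (100%, beside 48%). With transfection in isotonic medium 1 rose and 1 fell (40%, beside 12.5%).

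The third list held 16 further genes commonly given as YAP and TEAD targets, all tested. In WNK2- Ctr 11 were higher and 2 lower than in WT Ctr (81.2%, beside 42.1% of all genes), with a median log2 fold change of 0.71. The largest changes were those of F3 (tissue factor, which starts coagulation), 2.37 (SE 0.11, adjusted p = 1.53e-14), MYOF (myoferlin, a membrane repair protein), 2.01 (SE 0.11, adjusted p = 4.01e-13), and CRIM1, which binds bone morphogenetic proteins, 1.70 (SE 0.22, adjusted p = 9.55e-07). Under sorbitol 8 were higher and 4 lower in WNK2- cells (75%, beside 46.3%), again led by F3 (3.25 (SE 0.11, adjusted p = 2.2e-17)), MYOF (2.07 (SE 0.11, adjusted p = 9.29e-14)) and CRIM1 (1.68 (SE 0.22, adjusted p = 7.38e-07)). Sorbitol in WT cells raised 4 and lowered 2 (37.5%, beside 24.1%), with DOCK5, a Rac activator, at 0.90 (SE 0.14, adjusted p = 4.24e-05), MYOF at 0.46 (SE 0.11, adjusted p = 0.00345) and ARHGEF17 at 0.45 (SE 0.12, adjusted p = 0.00651). In WNK2- cells it raised 3 and lowered 2 (31.2%, beside 14.9%), with NT5E (CD73) at 1.13 (SE 0.10, adjusted p = 4.99e-09), RBMS3 at -0.98 (SE 0.14, adjusted p = 1.33e-05) and CCDC80 at -0.92 (SE 0.09, adjusted p = 7.77e-08).

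Between transfected and untransfected cells the third list moved in both directions. In isotonic medium 3 rose and 4 fell (43.8%, beside 12.5%), with IGFBP3, a carrier of insulin-like growth factors, at 2.53 (SE 0.11, adjusted p = 7.2e-14), F3 at -1.06 (SE 0.11, adjusted p = 4.08e-07) and CCDC80 at 0.77 (SE 0.09, adjusted p = 1.67e-06). In sorbitol 6 rose and 4 fell (62.5%, beside 31.7%), with F3 at 2.68 (SE 0.11, adjusted p = 1.11e-14), CCDC80 at -1.27 (SE 0.09, adjusted p = 1.84e-10) and NT5E at 1.10 (SE 0.10, adjusted p = 2.89e-09). Between the transfected groups, sorbitol raised 9 and lowered 5 (87.5%, beside 48%), with IGFBP3 at -3.45 (SE 0.12, adjusted p = 2.48e-17), F3 at 3.33 (SE 0.12, adjusted p = 4.98e-17) and CCDC80 at -2.32 (SE 0.10, adjusted p = 8.48e-16). F3 thus had the same sign as ANKRD1 in 6 of the 7 comparisons, the exception being sorbitol in WT cells. IGFBP3 had the opposite sign to ANKRD1 in the comparisons of WNK2- with WT cells and of transfected with untransfected cells.

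**Figure D4:**
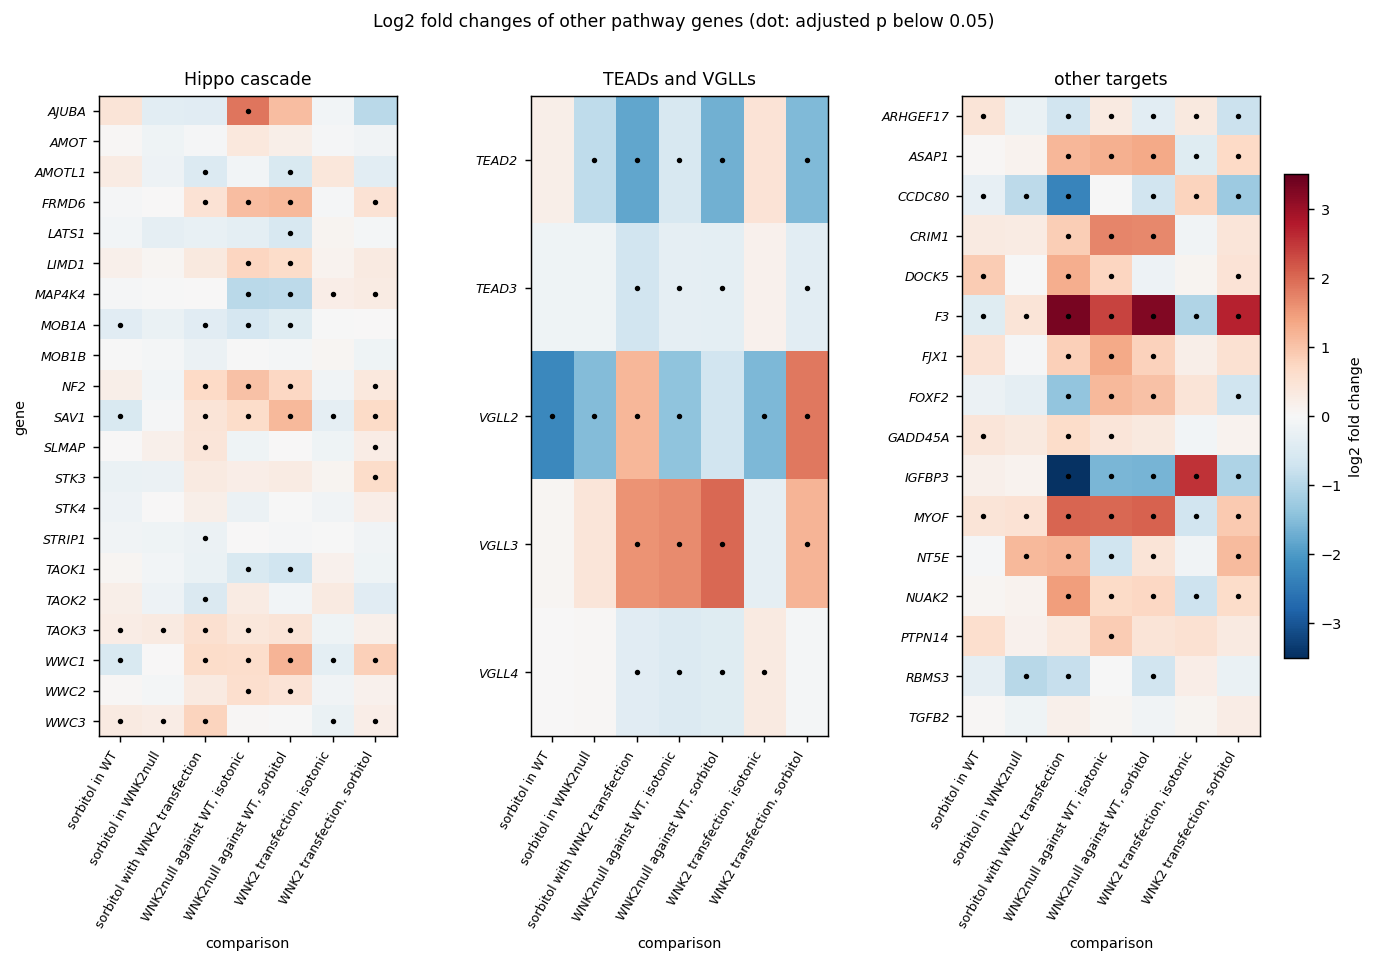
Log2 fold change (colour) of the other genes of the pathway (rows) in 7 comparisons (columns), in 3 lists, with a dot where the adjusted p was below 0.05. F3 and MYOF are higher in WNK2- than in WT cells in both media, and TEAD2 and TEAD3 are lower.

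Markers of other cell types moved with these results as well. In WNK2- Sor against the libraries labelled WT Sor all 4 tested fibroblast genes were lower (beside 22.7% of all genes), with sums of 159482 to 173123 against 542302 to 594157. In WNK2- Ctr 3 of 4 were lower (beside 21.5%), with 230486 to 268072 against 376665 to 479569. With transfection all 4 were higher in isotonic medium (median log2 fold change 0.97, beside 5.57% of all genes) and all 4 lower in sorbitol (-1.47, beside 15.5%), and so had the opposite sign to ANKRD1 and AXL there. By label, sorbitol raised 3 of the 4 in WT cells (beside 11.4%), and it lowered all 4 in WNK2- cells (beside 6.64%) and all 4 in the transfected groups (beside 23.7%). The chondrocyte list had sums of 69.6 to 86.0 in WNK2- Sor against 317 to 338 in the libraries labelled WT Sor. Of its 6 tested genes 4 were lower there (beside 22.7% of all genes), and 3 in WNK2- Ctr against WT Ctr (beside 21.5%). With transfection 5 were lower in sorbitol (beside 15.5%), while in isotonic medium 2 were higher (beside 5.57%) and none lower. By label, sorbitol raised 1 in WT cells (beside 11.4%) and lowered 1 in WNK2- cells (beside 6.64%). In the transfected groups it raised 1 and lowered 5 (beside 24.3% and 23.7%). The leukocyte marker CD14 was lower in WNK2- cells in isotonic medium (-1.94 (SE 0.19, adjusted p = 8.43e-09)) and in sorbitol (-2.47 (SE 0.19, adjusted p = 7.94e-11)), higher with transfection in isotonic medium (0.98 (SE 0.17, adjusted p = 0.000227)) and lower with it in sorbitol (-1.24 (SE 0.18, adjusted p = 7.53e-06)). PECAM1 and CDH5 carried most reads of the endothelial list. Its sums were 1823 to 1953 in WNK2 trans Sor against 1102 to 1235 in the libraries labelled WT Sor. Of its 4 tested genes 2 were higher there (beside 16.1% of all genes) and none lower. In WNK2- cells 3 were higher and 1 lower than in WT cells in isotonic medium (beside 20.7% and 21.5%). In sorbitol 2 were higher and 1 lower (beside 23.7% and 22.7%), and the sums were lower, 657 to 840. With transfection in isotonic medium 1 was lower (beside 6.98%). By label, sorbitol raised 1 in WT cells, 1 in WNK2- cells and 3 in the transfected groups (beside 11.4%, 8.25% and 24.3%). The epithelial sum was far lower in every library. KRT5 and KRT14 were at or near 0. The part of these lists in the changes of the YAP and TEAD genes was not tested.

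For each member the genes with the most similar pattern were named by Pearson's correlation of log2 CPM over the 24 libraries, which come from 6 groups and so carry the group differences with them. ANKRD1 was most like MYOF (0.99), NEXN (0.99) and LRRFIP2 (0.98), and AXL most like CCND1 (0.98), SLC35F3 (0.96) and ADM (0.96). CCN1 was most like BCAR3 (0.93), EPHA2 (0.92) and TMEM255B (0.91). WWTR1 was most like MTUS1 (0.98), CNTNAP3B (0.97) and CSGALNACT1 (0.97), and TEAD4 most like PABPC4, DDX54 and NOC2L (0.96 each). TEAD1 was most like BIRC6, MYSM1 (0.96 each) and MYO9A (0.95), and YAP1 most like NSD3 (0.93), C2orf27A (0.92) and AMOTL1 (0.90). LATS2 (highest value 0.86, with GOPC, then NBEAL1 and TANC1) and AMOTL2 (0.86, with SMPD4BP, then MIR23AHG and DDX12P) had no gene above 0.9. Between members, ANKRD1 and AXL had a correlation of 0.92 over all libraries and 0.22 once group means were taken out. Their likeness was therefore one of groups and not of single libraries.

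Since the WNK2- cells were 1 clone, the 10 nearest tested genes on each side of each member were compared as well. Around ANKRD1 the median log2 fold change of the 20 neighbours was -0.27 in WNK2- Ctr against WT Ctr, and none was called higher. Around AXL it was -0.49, with 8 of 20 lower and none higher. Around TEAD4 it was -0.04, with 6 higher and 3 lower. Around WWTR1 it was -0.27, with 3 higher and 5 lower, beside -0.65 for WWTR1 itself. Around CCN1 it was -0.03, with 5 higher and 2 lower, and around AMOTL2 0.09, with 4 higher and 1 lower. For TEAD1 the neighbours had a median of 0.24, with 7 higher and 4 lower, beside 0.33 for TEAD1 itself, which did not pass. For YAP1 it was -0.06, with 4 higher and 5 lower, and for LATS2 -0.08, with 3 higher and 3 lower. The part of chromosomal position in these changes was not tested.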

How the data were processed

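RNA was isolated from 24 cultures, 4 biological replicates in each of 6 groups, and groups follow the labels. The authors deposited raw counts of reads per Ensembl gene, made with HTSeq from poly(A)-enriched libraries without normalization. The submitters' processing notes also name FastQC 0.11.9, HISAT2 2.2.1, HTSeq 2.0.2, DESeq2 1.38.3 and GRCh38, and the annotation release is not given in the sources used here. HTSeq leaves out reads that it cannot assign to a single gene, and genes nested in other genes were mostly at 0. Strand use in counting is not stated. Totals per library (14153002 to 25664619) limit precision through counting error.

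Low genes were removed with filterByExpr (minimum count 10, minimum total 15). TMM factors were applied, and one quasi-likelihood model of the 6 groups was fitted in edgeR 4.0.16 (R 4.3.3, limma 3.58.1). Contrasts gave 7 pairwise comparisons and 2 interactions, each adjusted by Benjamini-Hochberg over 16600 genes, with a threshold of 0.05. The SE was taken as the size of the log2 fold change over the square root of the F statistic. The method was tested on simulated data. Alternatives were DESeq2 1.42.0, relative log expression factors, no filter, only the groups compared, a replicate block, leaving out each library, thinning to the smallest total, a minimum log2 change of 0.3, and a GC and length correction. Fits without the group labelled WNK2 trans Ctr, and without it and the group labelled WT Sor, were chosen after seeing the data. Same-numbered replicates had correlations of -0.273 to 0.223 over 28 pairs, so the numbers were not taken to pair samples. No pair of replicates agreed within sampling noise (chi-square per degree of freedom 2.30 to 68.4 over 36 pairs).

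Members and lists were chosen with earlier results of these data known. The text names every member, with its value or the range of its values in each comparison, WNK2, up to 3 called genes of each pathway list per comparison by size of change, and the 3 genes most like each member (mean log2 CPM of at least 3, prior count 2). VGLL4 and TEAD3 were named beside the first 3 of their list after their values were seen, to account for all of a short list. Positions are from GENCODE 29 (GRCh38) and promoters from RefSeq GRCh38.p14. Sorbitol dose and times come from the study's methods.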

Additional observations from a re-analysis of the deposited data

Results flagged for a closer look

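The difference in the response to sorbitol between 2 backgrounds passed the test itself for 7 results. Between WNK2- and WT cells, the log2 difference was -0.74 for AMOTL2 (SE 0.16, adjusted p = 0.0048), -0.54 for CCN1 (SE 0.17, adjusted p = 0.0427) and 0.63 for ANKRD1 (SE 0.19, adjusted p = 0.0396). AMOTL2 rose with sorbitol in all 4 libraries labelled WT Sor relative to every WT Ctr library, and all 4 WNK2- Sor libraries lay below every WNK2- Ctr library. Between the transfected groups and WT cells, it was -0.69 for YAP1 (SE 0.15, adjusted p = 0.000903), 0.50 for CCN1 (SE 0.17, adjusted p = 0.0211), 2.65 for ANKRD1 (SE 0.20, adjusted p = 2.28e-10) and 1.43 for AXL (SE 0.13, adjusted p = 3.57e-09). All 7 rest on the libraries labelled WT Sor, and the last 4 also on those labelled WNK2 trans Ctr, and WNK2 RNA was low in both. No single library stood out by Dixon's criterion in 54 groups of 4, where chance would mark about 1 in 20.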

How the results depend on the processing

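Of 1512 values of the 9 tested genes under another setting, 1372 kept their direction and their side of the threshold, 45 lost and 33 gained a call in the same direction, and 62 changed sign. All sign changes were in comparisons that had not passed, and the cause of changed calls was not tested. With relative log expression factors all 81 values were unchanged in direction and call, and the GC and length correction moved the median log2 change of all genes for sorbitol in WT from 0.04 to -0.09, while no other setting or comparison moved it by over 0.1. Same-numbered replicates had correlations of -0.273 to 0.223, so they share only a number. With the replicate block TEAD1 with transfection in isotonic medium became 0.015, and ANKRD1 lost its call in the genotype interaction (0.62, adjusted p = 0.0558). The block ended no other member's call. Without the group labelled WNK2 trans Ctr, ANKRD1 lost that same call (0.63, adjusted p = 0.0529).

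Against a minimum change, the members that passed fell from 3 to 1 for sorbitol in WT, from 4 to 2 for transfection in sorbitol and from 3 to 1 for the genotype interaction, and YAP1 lost its 3 pairwise calls. The counts over all genes then were 1421 for sorbitol in WT (4008 in the joint fit), 4378 for WNK2- against WT in isotonic medium, 804 and 2642 for transfection in isotonic medium and in sorbitol, 1018 for sorbitol in WNK2- cells, 5310 for sorbitol with transfection and 522 for the genotype interaction. The GC and length correction raised the counts over all genes to 6084 for sorbitol in WT, 4354 for sorbitol in WNK2- cells and 2307 for the genotype interaction, and members passed in 5 cases for transfection in isotonic medium, 4 for sorbitol in WNK2- cells and 7 for the transfection interaction. With only the groups compared, 747 genes passed for transfection in isotonic medium and 4824 for sorbitol in WNK2- cells, with 4 members in the latter, where DESeq2 gave 2.

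After the GC and length correction the log2 changes of opposite sign were -0.028 for YAP1 in WNK2- against WT in isotonic medium and -0.070 for TEAD1 in sorbitol, 0.024 for TEAD1 with transfection in isotonic medium, and -0.044, -0.12 and 0.12 for WWTR1, TEAD1 and AMOTL2 with transfection in sorbitol. For sorbitol with transfection, WWTR1 had -0.25 (adjusted p = 0.0026) and TEAD4 0.19 (adjusted p = 0.0277), both called, and TEAD1 -0.0064. TEAD4 had 0.086 in the genotype interaction and TEAD1 -0.14 in the transfection interaction. For TEAD1 in WNK2- against WT under sorbitol the value was -0.032 without the filter, -0.0045 with only the groups compared and -0.0072 after thinning. Without the filter TEAD1 with transfection in isotonic medium had 0.0050, WWTR1 for sorbitol with transfection -0.00036 and AXL in the genotype interaction -0.0070. After thinning LATS2 had 0.030 for sorbitol in WNK2- cells.

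Leaving out 1 library at a time, sorbitol in WNK2- cells gave 1 to 2 members past the threshold, and the genotype interaction 1 to 4 members and 849 to 1908 genes. The log2 change spanned 0 in the following cases. AXL ran from -0.098 to 0.015 for sorbitol in WT, YAP1 from -0.041 to 0.10 in WNK2- against WT in isotonic medium, and TEAD1 from -0.046 to 0.071 in sorbitol. With transfection in isotonic medium TEAD1 ran from -0.15 to 0.15, TEAD4 from -0.082 to 0.076, LATS2 from -0.026 to 0.14 and CCN1 from -0.15 to 0.014. In sorbitol TEAD1 ran from -0.022 to 0.17 and AMOTL2 from -0.17 to 0.011. For sorbitol in WNK2- cells LATS2 ran from -0.039 to 0.013 and AXL from -0.044 to 0.036. With transfection WWTR1 ran from -0.088 to 0.087 and LATS2 from -0.048 to 0.11. AXL ran from -0.033 to 0.086 in the genotype interaction. In the transfection interaction TEAD1 ran from -0.10 to 0.20 and AMOTL2 from -0.076 to 0.14.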
